A study of Rattus norvegicus with 18 samples.

Results

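The 38 genes described here encode the proteins of complement and of blood coagulation that the liver releases into plasma, together with the enzymes that dissolve clots and the inhibitors of both systems. They were chosen by name: every probe set whose deposited gene symbol, without a "_predicted" ending, was one of the 38 was taken. The array named 33 of the 38 genes, through 41 of its 31099 probe sets. These were 15 of 15 complement genes, 9 of 14 genes of coagulation and fibrinolysis, and 9 of 9 inhibitors. Of F7, F9, F11, F13b and Kng1, no probe set carried the name. All 33 named genes passed the filter on low signals, and each was represented by its brightest probe set.

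The study followed the liver of Sprague-Dawley rats during treatment with diethylnitrosamine (DEN), a nitrosamine that hepatocytes convert into a DNA-alkylating agent and that is used to induce liver cancer in rodents. RNA was hybridised to Affymetrix Rat Genome 230 2.0 arrays, 3 for each of 6 groups: normal liver at 0 h without DEN, and liver after DEN for 5 weeks, 8 weeks, 12 weeks, 16 weeks or 18 weeks. The tissue came from the middle of the right lobe, and the labels do not say whether tumour was separated from the surrounding liver. Every sample carried the age label 12-week-old, normal liver was sampled at 0 h alone, and the sources used here give neither dose nor sex nor number of animals. By their labels the 3 arrays within each group are technical repeats, which leaves the p-values below resting on array spread, with perhaps no spread between animals in it.

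Complement is a cascade of plasma proteases that marks and perforates targets. It starts through lectins, through antibodies (the classical pathway) or by itself (the alternative pathway), passes through C3, and ends in a pore built from C5 to C9. Coagulation is a second protease cascade, in which factor X activates prothrombin and thrombin turns fibrinogen into fibrin, and plasmin removes the clot. Hepatocytes make most of these proteins, and the hepatocyte factors HNF4 and C/EBP bind many of their promoters. C3, factor B, C9 and the fibrinogens are known as acute-phase proteins, which inflammation raises.

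Promoters are shown for 4 members whose signals are described below. C8a and C8b fell at least 2-fold at 12, 16 and 18 weeks. Fga and Fgb were also lower than normal liver at every time, but by less than 2-fold in the probe sets used. RefSeq (build GRCr8) held a promoter for 24 of the 33 measured members. The letters TTGCNNAA of the C/EBP motif, in which N is any base, were searched on both strands in the 250 bases before each start and stood in 9 of these 24 promoters (37.5%), against 9.20% of all 27457 promoters in the table. The 150 bases before each start are printed 5′ to 3′ along the gene, with the match in capitals (TTNNGCAA where it lies on the other strand).
C8a, chr5:124866632-124866781, minus strand: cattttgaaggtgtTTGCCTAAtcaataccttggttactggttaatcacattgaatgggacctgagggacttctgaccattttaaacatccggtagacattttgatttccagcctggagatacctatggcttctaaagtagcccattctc
C8b, chr5:124763964-124764113, plus strand: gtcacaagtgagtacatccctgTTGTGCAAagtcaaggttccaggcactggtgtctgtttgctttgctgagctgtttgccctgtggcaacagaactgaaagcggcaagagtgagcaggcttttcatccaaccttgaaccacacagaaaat
Fga, chr2:170672019-170672168, plus strand: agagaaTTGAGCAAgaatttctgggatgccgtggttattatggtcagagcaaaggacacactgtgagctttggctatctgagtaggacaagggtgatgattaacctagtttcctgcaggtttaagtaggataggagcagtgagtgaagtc
Fgb, chr2:170700876-170701025, minus strand: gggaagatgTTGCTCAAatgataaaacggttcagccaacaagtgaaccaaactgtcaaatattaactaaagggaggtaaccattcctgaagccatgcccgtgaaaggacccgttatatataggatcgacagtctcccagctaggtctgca
The match began 136 bases before the start of C8a, 128 before that of C8b, 144 before that of Fga and 141 before that of Fgb. The other 5 promoters with a match were those of C3, C6, C4bpa, Klkb1 and Serpinc1. All 4 printed promoters were thus ones with a match, while 15 of the 24 had none. The HNF4 letters CAAAGTCCA stood in 0 of the 24, against 0.331% of all promoters, and the STAT3 letters TTCCNGGAA in 1, that of Fga, against 1.04%. At 16 weeks 4 of the 9 members with the C/EBP letters were called lower, and 7 of the 15 without them.

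Under DEN most of these genes gave lower signals than in normal liver, and none was called higher at any time. A gene was called when its adjusted p (limma, Benjamini-Hochberg over all 10452 genes tested) was under 0.05 and its change was at least 2-fold. At 5 weeks 0 of 33 members were called, against 1.61% of all genes called lower. At 8 weeks 1 member, Mbl2, was called lower (3.13% of all genes). At 12 weeks 12 members were called lower (4.43% of all genes), at 16 weeks 14 (5.6%) and at 18 weeks 10 (4.41%). All 3 arrays lay below all 3 normal arrays in 28 members after 5 weeks (25.1% of all genes), 30 after 8 (24.0%), 32 after 12 (25.6%), 31 after 16 (26.7%) and 31 after 18 (25.8%). Without the demand of a 2-fold change, 29 members passed at 5 weeks, 27 of them lower (21.9% of all genes) and 2 higher. At an unadjusted p under 0.05, 28 were lower (24.5% of all genes) and 2 higher. The median log2 change of the members was -0.27 after 5 weeks, -0.52 after 8, -0.86 after 12, -0.97 after 16 and -0.76 after 18, while that of all genes lay between 0.04 and 0.16. After quantile normalization the members' medians were smaller, -0.077, -0.085, -0.53, -0.42 and -0.42 in order of time, and after median centring larger, -0.37, -0.63, -1.24, -1.44 and -0.94.

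**Figure D1:**
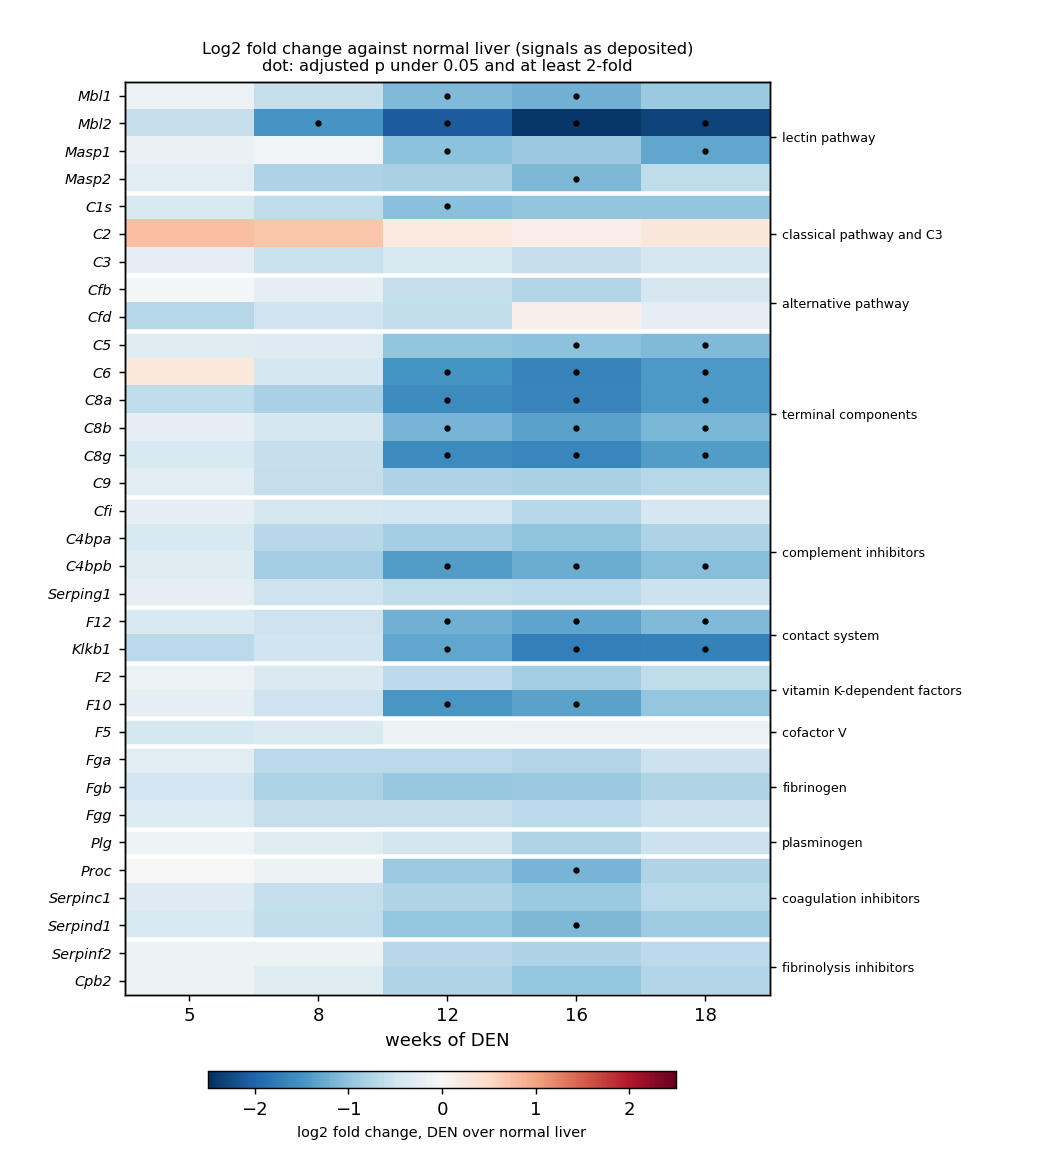
Log2 fold change of the 33 measured members (rows, grouped by role) after 5, 8, 12, 16 and 18 weeks of DEN (columns) over normal liver, with a dot where a gene was called. The dots begin with Mbl2 at 8 weeks and number 12, 14 and 10 at 12, 16 and 18 weeks, all in blue, which marks lower signals in DEN liver, and C2 is the row above 0 at all 5 times.

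The size of these counts depended on how the arrays were scaled. Of the 33 members, 20 had a mean signal in normal liver above 14003, the 99th percentile of the array, and such bright genes lost signal as a class. Of all 276 tested genes above that level, 87 were called lower at 12 weeks and 93 at 16 weeks, with median log2 changes of -0.60 and -0.74. Of the 20 bright members, 6 were called at each of these times, with medians of -0.76 and -0.93, so their share of calls was close to that of bright genes in general. Among the 13 dimmer members, 6 were called at 12 weeks and 8 at 16 weeks, against 4.43% and 5.6% of all genes tested, bright ones included. Whether the brightest probe sets were saturated was not tested. After quantile normalization, which gives all arrays the same distribution, 6 members were called after 12 weeks, 5 after 16 and 6 after 18. After centring each array on its median, the counts were 25, 30 and 14. That centring also moved the median log2 change of all genes, to -0.23 at 12 weeks and -0.31 at 16 weeks. Shares of all genes called lower under these other scalings are not given here. The counts under them therefore cannot be set against 4.43% and 5.6%, which hold for signals as deposited. The array medians averaged 126 in normal liver and 136, 137, 169, 180 and 145 in the DEN groups in order of time. The members that were called lower at 12, 16 and 18 weeks under all 3 scalings were Mbl2, C6, C8a and C8g.

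**Figure D2:**
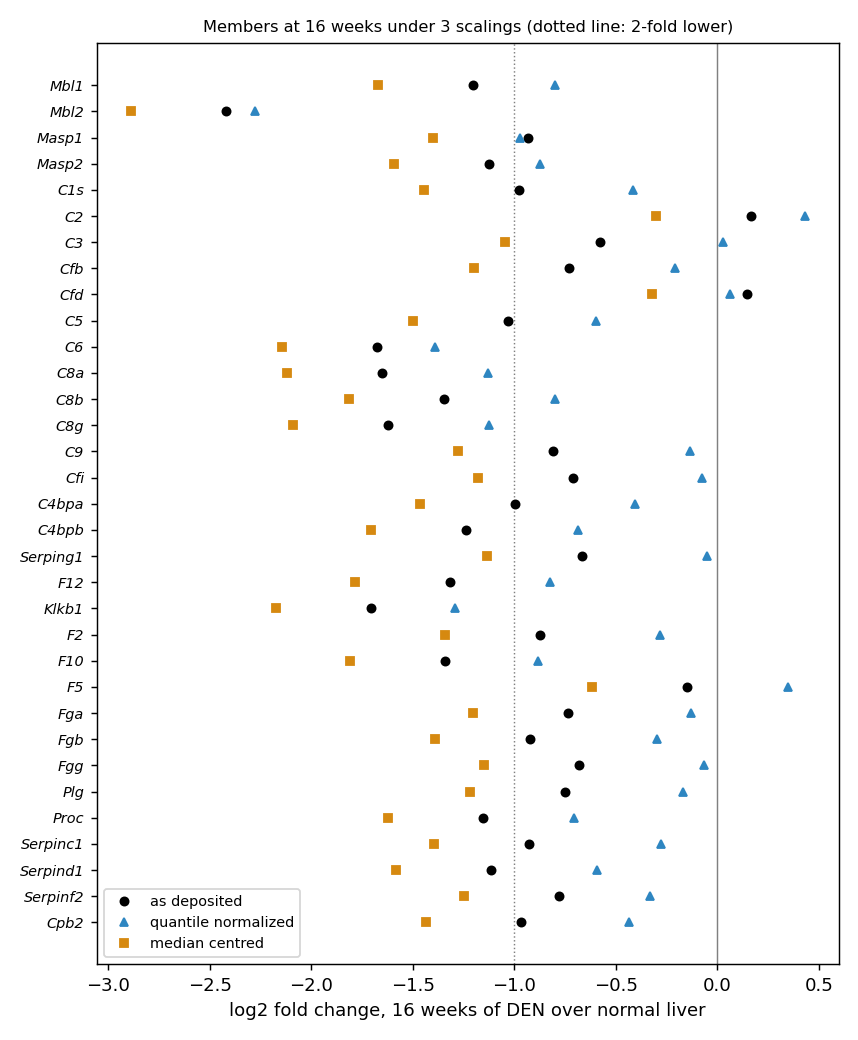
Log2 fold change of each member at 16 weeks of DEN over normal liver (x axis), from signals as deposited (circles), after quantile normalization (triangles) and after median centring (squares). Most members shift to the right after quantile normalization, where 5 of the 33 were called lower, and to the left after median centring, where 30 were, while Mbl2 lies at or below -2.28 in all 3.

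The lectin pathway held the gene with the largest decrease among the members. Mbl2 encodes mannose-binding lectin C, which recognises sugars on microbes. Its signals were 6455, 6284 and 5698 in normal liver, 4105, 4008 and 4067 after 5 weeks, 2285, 2172 and 2133 after 8, 1453, 1477 and 1394 after 12, 1119, 1120 and 1156 after 16, and 1259, 1202 and 1192 after 18. Each time group lay below normal liver without overlap, and the arrays of 12, 16 and 18 weeks lay below those of 8 weeks. The log2 change was -1.48 at 8 weeks (SE 0.0504, adjusted p = 7.59e-12) and -2.42 at 16 weeks (SE 0.0504, adjusted p = 9.84e-15), when the level was 18.7% of normal. Mbl1, the related mannose-binding lectin A, had 8526, 7747 and 8350 in normal liver, 7542, 7555 and 7163 after 5 weeks, 5707, 5426 and 5387 after 8, 3866, 3741 and 3784 after 12, 3668, 3505 and 3473 after 16, and 4459, 4321 and 4178 after 18. It fell by 1.11 at 12 weeks and by 1.21 at 16 weeks on the log2 scale, and its change of -0.92 at 18 weeks missed the 2-fold threshold. After quantile normalization Mbl1 missed the threshold at 12 and 16 weeks too, with -0.79 and -0.80.

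Masp1 and Masp2 encode the proteases that the lectins activate. Masp1 had 1804, 1779 and 1747 in normal liver, 1536, 1634 and 1600 after 5 weeks, 1610, 1674 and 1767 after 8, 866, 776 and 954 after 12, 919, 901 and 946 after 16, and 696, 711 and 746 after 18. The arrays of 8 weeks overlapped normal liver, and those of 12, 16 and 18 weeks lay below all earlier ones. Its log2 change was -1.03 at 12 weeks and -1.29 at 18 weeks, both called, and -0.93 at 16 weeks, not called. A second Masp1 probe set gave -0.25, -0.46, -0.80, -1.01 and -0.59 over the 5 times. The remaining one was called lower at all 5, but it had single arrays of 20.6, 31.4 and 24.5 at 8, 16 and 18 weeks, under the filter level of 87.5, so the sizes of its changes (SE 0.721, adjusted p = 0.0486 at 5 weeks) are not compared. Masp2 had 2612, 2321 and 2282 at 16 weeks, against 5248, 5183 and 5356 in normal liver, and was called at that time alone (log2 -1.13, SE 0.0548, adjusted p = 9.86e-11). After quantile normalization it was -0.87 and not called. Its second probe set was called at 12 and 16 weeks, with -1.31 and -1.41. Of the 4 lectin pathway genes, 1 was called lower after 8 weeks, 3 after 12, 3 after 16 and 2 after 18.

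Of the 3 genes of the classical pathway and C3, 1 was called, at 1 time. C1s, a protease of the first classical component, had 12156, 12340 and 11749 at 12 weeks, against 24580, 26311 and 23520 in normal liver (log2 -1.04, SE 0.0465, adjusted p = 5.08e-11). It stayed near that level, at 50.8% of normal at 16 weeks and 50.4% at 18 weeks, just short of the 2-fold threshold, and without the second normal array its change at 12 weeks was -0.99. After quantile normalization that change was -0.63, which ended the call. C2, the protease subunit of the enzyme that cleaves C3, went against the other members. Its signals were 3500, 3543 and 3335 in normal liver, 5832, 5708 and 5949 after 5 weeks, 5478, 5513 and 5745 after 8, 3885, 4371 and 4079 after 12, 3825, 3920 and 3886 after 16, and 4121, 4044 and 4393 after 18. Every DEN array lay above every normal array, yet the log2 changes of 0.75, 0.69, 0.25, 0.16 and 0.27 were all under 2-fold and none was called. The other 2 C2 probe sets gave values above 0 at all 5 times as well, between 0.09 and 0.63, but median centring turned the gene to -0.13 at 12 weeks and -0.30 at 16 weeks. C3, on which all routes meet, had 44289, 50221 and 40999 in normal liver, 36857, 39578 and 37630 after 5 weeks, 27882, 31772 and 31833 after 8, 33087, 34949 and 34687 after 12, 30590, 30247 and 29537 after 16, and 32841, 32309 and 36362 after 18. Its log2 changes lay between -0.58 and -0.24, were not called, and lay between 0.01 and 0.07 after quantile normalization.

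The 2 alternative pathway genes were not called at any time. Cfb, factor B, whose gene is the neighbour of C2 in the RefSeq annotation, had 10579, 10398 and 9822 at 16 weeks, against 16920, 17818 and 16496 in normal liver, a log2 change of -0.73. At 5 weeks it was at 96.5% of normal, when C2 was at 168%. Quantile normalization put Cfb above normal at 5 and 8 weeks, with 0.15 and 0.16. Cfd, factor D or adipsin, which activates factor B and is known as a product of fat cells, was the dimmest member. Its signals averaged 914 ± 78.6 in normal liver, 553 ± 61.1 after 5 weeks, 639 ± 23.6 after 8, 592 ± 33.6 after 12, 1013 ± 78.4 after 16 and 776 ± 120 after 18 (SD, n = 3 each). The DEN arrays lay below normal liver at 5, 8 and 12 weeks and overlapped it at 16 and 18 weeks, where median centring gave -0.32 and -0.42. Of 6 fat cell markers, 2 passed the filter, and they moved in opposite directions. At 16 weeks Fabp4 was called higher, with a mean of 1019 against 58.0 in normal liver, and Cidec lower, with 947 against 2219.5 in normal liver.

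Of the 6 terminal components, which build the pore, 5 were called lower at 1 time or more. None was called after 5 or 8 weeks, 4 were after 12, 5 after 16 and 5 after 18, and quantile normalization left 3 at each of the last 3 times. C6 had 7609, 7313 and 7341 in normal liver, 9466, 9413 and 7894 after 5 weeks, 5169, 5599 and 5617 after 8, 2630, 2532 and 2689 after 12, 2363, 2180 and 2395 after 16, and 2573, 2952 and 2677 after 18. The 5-week arrays of C6 lay above normal liver, those of 8 weeks below it, and those of 12 to 18 weeks below both. The log2 change was 0.26 at 5 weeks, not called, and -1.498, -1.68 and -1.44 at 12, 16 and 18 weeks. The authors' deposited log2 ratios did not show the rise of C6 at 5 weeks. Over 9 pairs of arrays they averaged -0.11 and lay between -0.2 and 0. C6 was also the member called between neighbouring times, with -1.06 at 12 weeks over 8 weeks (SE 0.0727, adjusted p = 1.96e-08), where 1.86% of all genes were called lower. Quantile normalization ended that call.

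C8 is assembled from an alpha, a beta and a gamma chain, and the genes of all 3 fell. C8a had 18809, 19389 and 17927 in normal liver, 12052, 12217 and 11816 after 5 weeks, 10578, 10725 and 10522 after 8, 6833, 6157 and 5931 after 12, 6167, 5840 and 5813 after 16, and 6986, 6905 and 6768 after 18. No DEN array reached the normal range, and the level at 16 weeks was 31.8% of normal (log2 -1.65, SE 0.0522, adjusted p = 7.61e-13). C8g had 17129, 19006 and 16844 in normal liver, 13730, 13850 and 13225 after 5 weeks, 11767, 12154 and 11743 after 8, 6426, 5773 and 5638 after 12, 5816, 5687 and 5663 after 16, and 6788, 6817 and 6572 after 18. Its log2 change at 16 weeks was -1.62. C8b, which lies beside C8a in the RefSeq annotation, had 19427, 19396 and 17853 in normal liver, 15876, 16476 and 15640 after 5 weeks, 13989, 13291 and 14405 after 8, 8355, 8639 and 8367 after 12, 7510, 7403 and 7347 after 16, and 8816, 8426 and 8527 after 18, a log2 change of -1.35 at 16 weeks. C8a and C8g kept their calls at 12, 16 and 18 weeks under all 3 scalings, and C8b lost all 3 after quantile normalization, with -0.72, -0.80 and -0.78. C5, which is cleaved to start the pore, had 10113, 9665 and 10182 in normal liver, 8226, 7992 and 8200 after 5 weeks, 7994, 7992 and 7925 after 8, 5065, 5097 and 4878 after 12, 4938, 4928 and 4740 after 16, and 4771, 4601 and 4539 after 18. It fell by 1.03 at 16 weeks and by 1.10 at 18 weeks, and the change of -0.99 at 12 weeks fell short of 2-fold. After quantile normalization C5 was called at neither time, with -0.60 and -0.84. C9, which forms the wall of the pore, was the terminal component with no call: its level was 57.0% of normal at 16 weeks (log2 -0.81), and after quantile normalization its changes lay between -0.27 and 0.00.

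**Figure D3:**
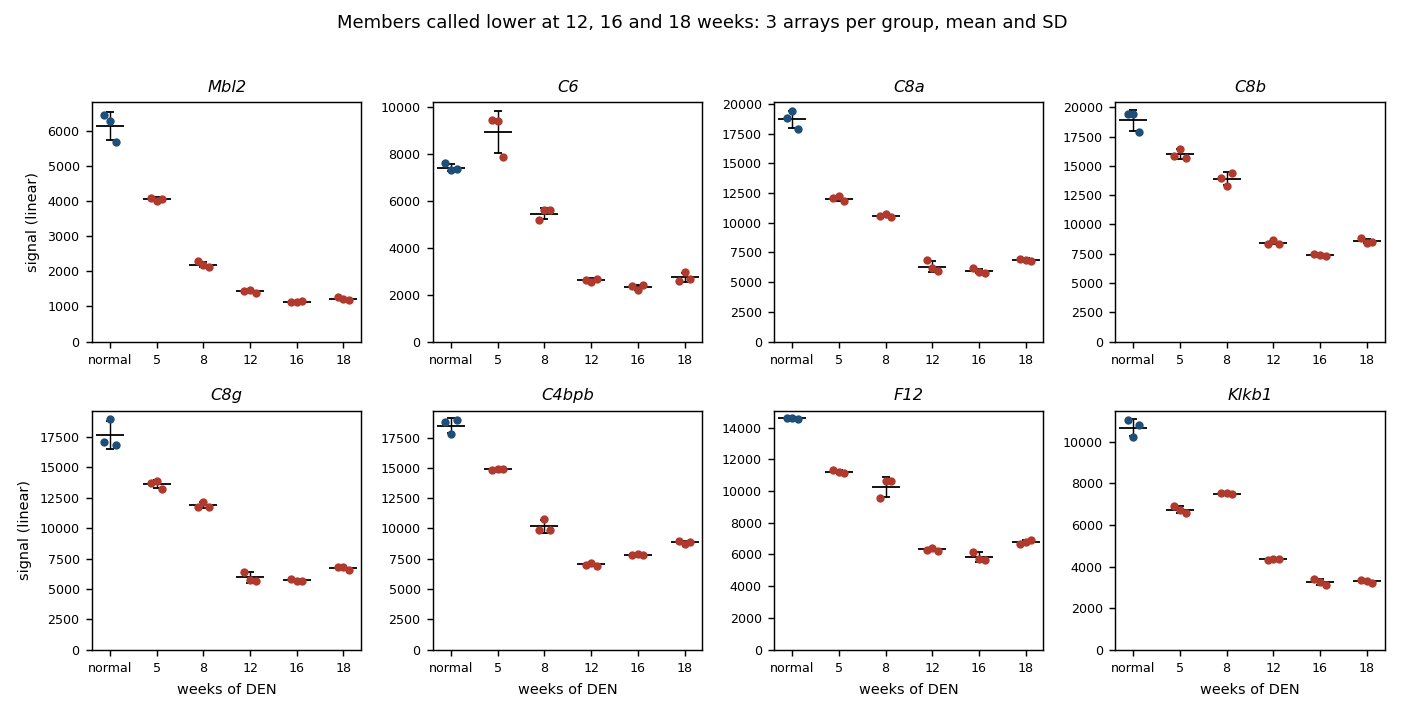
Signals (linear scale) of the 8 members called lower at 12, 16 and 18 weeks, by weeks of DEN with normal liver at the left, showing each of 3 arrays (red for DEN, blue for normal liver) with the mean and SD. C6 is higher than normal liver at 5 weeks, and in all 8 panels the arrays of 12, 16 and 18 weeks lie below all others.

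The complement inhibitors showed 1 called gene of 4. C4bpb encodes the beta chain of C4b-binding protein, a cofactor in the breakdown of C4b whose beta chain binds protein S. It had 18759, 17769 and 18936 in normal liver, 14851, 14914 and 14915 after 5 weeks, 9834, 10790 and 9859 after 8, 7001, 7170 and 6925 after 12, 7815, 7864 and 7771 after 16, and 8943, 8757 and 8862 after 18. All DEN arrays lay below normal liver. At 12, 16 and 18 weeks its log2 changes of -1.39, -1.24 and -1.06 were called, and after quantile normalization they were -0.95, -0.68 and -0.70 and not called. C4bpa, the alpha chain of the same protein, had 15977, 15432 and 15401 at 16 weeks, against 30927, 33701 and 29021 in normal liver, which is 50.1% of normal and just short of a call. Cfi, the protease that cleaves C3b and C4b, was at 61.1% of normal at 16 weeks (log2 -0.71), and Serping1, the inhibitor of C1 and of plasma kallikrein, at 63.0% (log2 -0.67). After quantile normalization Cfi lay between -0.08 and 0.05 and Serping1 between -0.18 and 0.03.

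In the contact system, which starts coagulation on surfaces, both measured genes fell. Klkb1 encodes plasma prekallikrein. Its signals were 11035, 10223 and 10808 in normal liver, 6913, 6731 and 6567 after 5 weeks, 7517, 7538 and 7486 after 8, 4311, 4343 and 4367 after 12, 3398, 3274 and 3111 after 16, and 3358, 3295 and 3192 after 18. The 5-week arrays lay below those of 8 weeks, and the arrays of 12, 16 and 18 weeks lay below both. The log2 change was -1.30 at 12 weeks, -1.71 at 16 weeks (SE 0.0445, adjusted p = 9.91e-14) and -1.70 at 18 weeks. F12, factor XII, had 14622, 14583 and 14566 in normal liver, 11336, 11211 and 11122 after 5 weeks, 9533, 10633 and 10617 after 8, 6300, 6431 and 6234 after 12, 6172, 5728 and 5632 after 16, and 6682, 6790 and 6915 after 18. It fell by 1.20, 1.32 and 1.10 at 12, 16 and 18 weeks on the log2 scale. After quantile normalization Klkb1 was called at 16 and 18 weeks, with -1.29 and -1.44, and F12 at none of the 3, with -0.80, -0.82 and -0.80. Kng2, a kininogen gene that was not a member and was looked at after the values were seen because Kng1 was not named, had 4 probe sets by deposited symbol, whose log2 changes at 16 weeks lay between -1.08 and -0.12. The probe set at -1.08 is named Kng2l1 by its RefSeq accession, and the others lay between -0.91 and -0.12.

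Of the vitamin K-dependent factors, F10 was called lower, while F2 was lower without reaching the 2-fold threshold. F10, factor X, had 10858, 11020 and 10445 in normal liver, 9275, 9088 and 8920 after 5 weeks, 7417, 7604 and 7436 after 8, 4087, 3970 and 3780 after 12, 4361, 4343 and 4031 after 16, and 5623, 5547 and 5404 after 18. Its mean was lowest at 12 weeks (log2 -1.45, SE 0.0453, adjusted p = 8.56e-13), with arrays that overlapped those of 16 weeks, and at 18 weeks, at 51.4% of normal, it was not called. After quantile normalization the change at 16 weeks was -0.88 and not called. F2, prothrombin, had 16856, 16201 and 16014 at 16 weeks, against 29721, 32007 and 28309 in normal liver, a log2 change of -0.87. F5, the cofactor of factor X in the cleavage of prothrombin, had 9396, 9851 and 9249 in normal liver, 6813, 6894 and 7162 after 5 weeks, 7086, 7612 and 7414 after 8, 8791, 9050 and 8135 after 12, 8873, 8263 and 8542 after 16, and 8790, 8506 and 8386 after 18. It was the coagulation gene nearest to normal liver at 12 to 18 weeks, with 90.1% to 91.1% of its level. It was farthest at 5 weeks, at 73.3% (log2 -0.45), and after quantile normalization it was 0.24, 0.35 and 0.15 above normal at 12, 16 and 18 weeks.

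The 3 fibrinogen chains, whose genes lie next to each other in the RefSeq annotation, were among the brightest members and were not called at any time. Fga had 26856, 26642 and 25245 at 16 weeks, against 43491, 47605 and 40200 in normal liver. Fgb had 24764, 24774 and 23353 at 16 weeks, against 45751, 49528 and 43156 in normal liver. Fgg, the brightest member, had 48667, 53314 and 49260 in normal liver, 38531, 41223 and 40075 after 5 weeks, 31689, 34292 and 33737 after 8, 32129, 34425 and 34813 after 12, 31573, 31958 and 30720 after 16, and 33816, 32584 and 38301 after 18. The DEN arrays of all 3 fibrinogen chains lay below every normal array at every time. Their log2 changes lay between -0.48 and -0.27 at 5 weeks and between -0.96 and -0.53 at 12 to 18 weeks, and after quantile normalization those of all 5 times lay between -0.49 and -0.03. A second Fga probe set was called at 12 weeks, with -1.33, and the other 2 Fgb probe sets did not pass the filter. Plg, plasminogen, was at 59.4% of normal at 16 weeks (log2 -0.75), with 18202, 17707 and 17853 against 29984, 32809 and 27932 in normal liver.

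**Figure D4:**
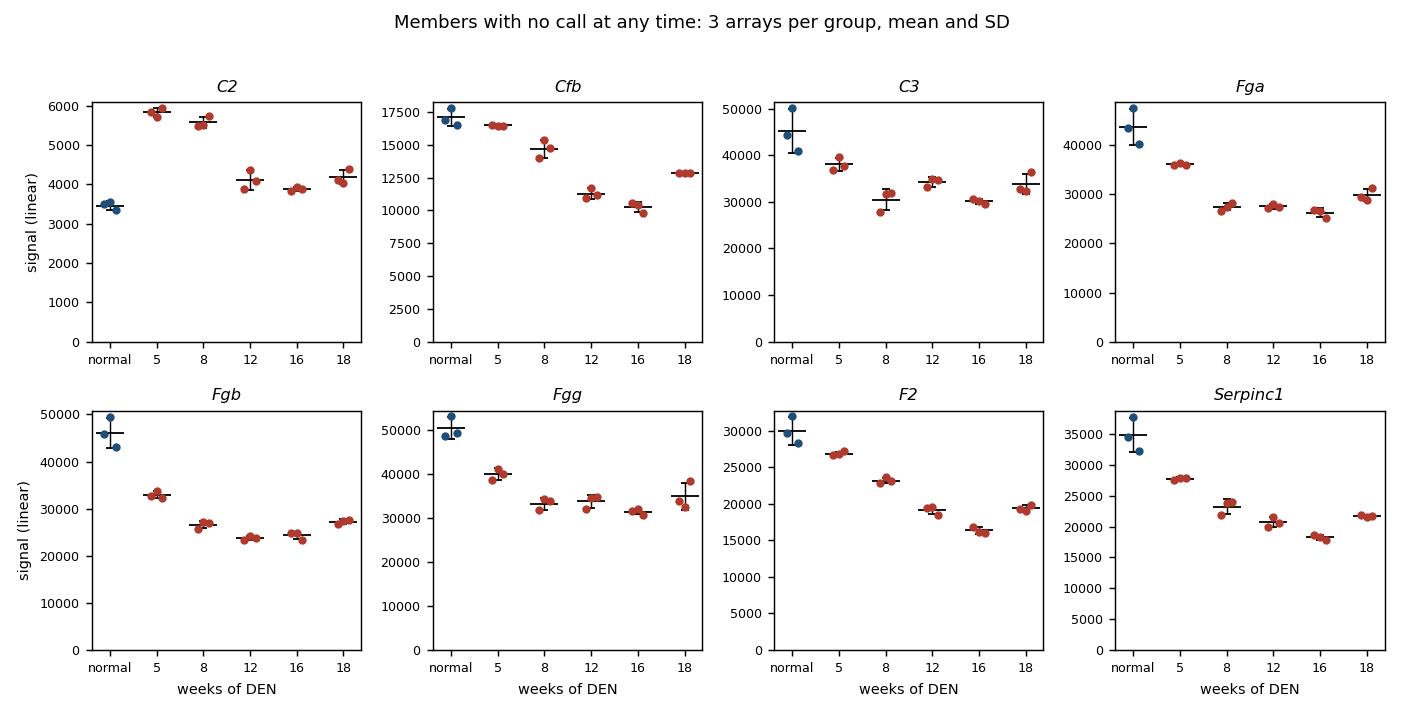
Signals (linear scale) of 8 members with no call at any time, by weeks of DEN with normal liver at the left, showing each of 3 arrays (red for DEN, blue for normal liver) with the mean and SD. C2 is above normal liver at all times, and the fibrinogen chains lie between 51.6% and 82.8% of normal liver.

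The inhibitors of coagulation and fibrinolysis gave 2 called genes of 5, both at 16 weeks alone. Proc encodes protein C, which inactivates factors V and VIII. It had 10491, 10340 and 10230 at 5 weeks and 4959, 4598 and 4535 at 16 weeks, against 10249, 11047 and 10096 in normal liver. The 5-week arrays overlapped normal liver (log2 -0.01), and those of 16 weeks lay below it (log2 -1.15, SE 0.0537, adjusted p = 6.11e-11). Serpind1, heparin cofactor II, had 10795, 10446 and 10760 at 16 weeks, against 23145, 24554 and 21851 in normal liver, a log2 change of -1.12. Serpinc1, antithrombin, the main inhibitor of thrombin and the brightest inhibitor gene, had 34578, 37885 and 32358 in normal liver, 27544, 27922 and 27912 after 5 weeks, 21842, 23873 and 23979 after 8, 19913, 21512 and 20664 after 12, 18723, 18316 and 17900 after 16, and 21833, 21605 and 21813 after 18. It was at 52.5% of normal at 16 weeks (log2 -0.93), and no DEN array reached the normal range. Serpinf2, the inhibitor of plasmin and the dimmest inhibitor gene, had 9211, 10052 and 9376 in normal liver, 9091, 8850 and 8129 after 5 weeks, 8735, 8563 and 8846 after 8, 5955, 6150 and 5612 after 12, 5651, 5621 and 5376 after 16, and 6279, 5999 and 5917 after 18. It was at 58.2% of normal at 16 weeks, and Cpb2, a carboxypeptidase that protects fibrin from plasmin, at 51.1%. After quantile normalization none of these 5 was called at any time.

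Over the 5 times, 16 members were called lower at 1 time or more, against 8.78% of all genes, and 17 at none. Lower at 12, 16 and 18 weeks were 8 members, C6, C8a, C8b, C8g, Mbl2, F12, Klkb1 and C4bpb, against 3.1% of all genes. By class, 8 of 15 complement genes were called after 12 weeks, 8 after 16 and 7 after 18. Of 9 genes of coagulation and fibrinolysis the counts were 3, 3 and 2, and of 9 inhibitors 1, 3 and 1. The class medians at 16 weeks were -1.03 for complement, -0.87 for coagulation and fibrinolysis, and -0.97 for inhibitors. After quantile normalization they were -0.80, -0.28 and -0.41, and the difference between classes was not tested. Averaged over the 5 DEN groups, 4 members were called lower, C8a, C8g, Mbl2 and Klkb1 (2.95% of all genes), and 7 without the arrays of 8 weeks.

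The lowest mean signal fell at 16 weeks in 24 of the 33 members. Between 16 and 18 weeks 29 members moved toward a higher signal, with a median log2 change of 0.21, and 0 were called by limma (0.22% of all genes were called higher). The median was 0.019 after quantile normalization, where 13 of the 33 lay below 0, and 0.49 after median centring. Of the 276 bright genes, 251 also moved toward a higher signal, with a median of 0.19. At an unadjusted p under 0.05, 25 members were higher at 18 weeks (24.2% of all genes) and 2 lower. Between 12 and 16 weeks 0 members were called as well (0.517% of all genes lower), with 16 lower (17.7% of all genes) and 3 higher at an unadjusted p under 0.05. Between 5 and 8 weeks 0 were called (1.02% of all genes lower), with 25 lower (17.3% of all genes) and 1 higher at an unadjusted p under 0.05. The members' summed signal was 671133 ± 33757 in normal liver, 552787 ± 6070 after 5 weeks, 463287 ± 14737 after 8, 389160 ± 4678 after 12, 358557 ± 7677 after 16 and 407910 ± 10580 after 18 (SD, n = 3 each). That was 2.58% of the array's summed signal in normal liver and 1.60% at 16 weeks.

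Other values of the tissue moved over the same weeks. Of 15 hepatocyte markers, all tested, 1 was called lower at 12 weeks and 2 at 16 weeks (Hnf4a and Cebpa), and their summed signal was 241861 to 256152 at 16 weeks, against 348344 to 403450 in normal liver. Of 8 bile duct markers, 6 were tested, and 6 were called higher at 16 weeks, with a summed signal of 13671 to 14995 at that time, against 1712 to 1875 in normal liver. Of 10 markers of stellate cells and myofibroblasts, 9 were tested and 8 were called higher at 16 weeks, with a sum of 24133 to 24782 at that time, against 6427 to 6642 in normal liver. Of 7 markers of the exocrine pancreas, 4 were tested, and 3 were called lower at 5 weeks and 4 at 16 weeks. Their summed signal was 5634 to 6058 at 16 weeks, against 22622 to 24009 in normal liver. Cpa1, 1 of them, averaged 24.6 at 5 weeks, against 6264 in normal liver. The part of this in the comparisons with normal liver was not tested. No tested marker was listed at 0. The ratio of the 3′ to the 5′ Gapdh control probe sets, which rises as RNA degrades, averaged 1.12 in normal liver. In the DEN groups it was 1.47, 2.12, 1.23, 1.26 and 1.32 in order of time. The same ratio for beta-actin was 3.52, 4.48, 2.69, 2.32 and 2.29, against 2.36 in normal liver. The part of these differences in the members' lower signals was not tested, and in whole tissue fewer hepatocytes and less RNA per hepatocyte cannot be told apart. Albumin, another protein that hepatocytes secrete, had log2 changes between -0.68 and -0.28 and was not called. Hnf4a had its lowest level at 8 weeks (log2 -2.91), the time of the highest Gapdh ratio, when 1 member was called. Its relation to that ratio and to the members' signals was not tested.

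A list of 56 further genes of both systems held 39 that were tested, among them receptors, activators and inhibitors that are not mainly products of hepatocytes. They split in direction. In order of time over the 5 DEN groups, higher were 4, 6, 9, 14 and 10 of them (4.47%, 7.31%, 12.1%, 14.5% and 11% of all genes). Lower were 0, 1, 4, 5 and 2 (1.61%, 3.13%, 4.43%, 5.6% and 4.41% of all genes). The median log2 change of the 39 at 16 weeks was 0.23. Quantile normalization gave 12 higher and 2 lower at 16 weeks, and median centring 10 higher and 12 lower. The shares of all genes above hold for signals as deposited alone.

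The genes that rose include cell-surface starters and brakes of coagulation and an activator of plasminogen. Plat, tissue plasminogen activator, had 128, 160 and 105 in normal liver, 186, 354 and 253 after 5 weeks, 470, 323 and 426 after 8, 908, 782 and 781 after 12, 992, 1114 and 1250 after 16, and 700, 786 and 664 after 18. Every DEN array lay above normal liver, and the change was called from 8 weeks on, reaching 2.96 at 16 weeks (SE 0.195, adjusted p = 3.41e-09). Between 8 and 12 weeks Plat rose by 1.003, a call that ended after quantile normalization (0.94) and after median centring (0.73). Anxa2, annexin A2, which binds plasminogen and its activator at cell surfaces, had 7245, 6638 and 6665 at 18 weeks, against 649, 454 and 651 in normal liver, a log2 change of 3.53. It was called higher at all 5 times, and after median centring at all but 5 weeks. F3, tissue factor, which starts coagulation outside vessels, had 228, 276 and 205 at 16 weeks, against 45.3, 57.3 and 8.58 in normal liver. Plaur, the urokinase receptor, had 220, 218 and 192 at 16 weeks, against 14.5, 15.1 and 67.6 in normal liver. For F3 and Plaur normal liver lay under the filter level of 87.5, so their log2 changes of 2.38 and 2.39 depend on the 16 added before the logarithm.

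Procr, the endothelial receptor of protein C, had 738, 905 and 870 at 16 weeks, against 146, 113 and 133 in normal liver (log2 2.54, SE 0.159, adjusted p = 1.83e-09). Thbd, thrombomodulin, the thrombin receptor that makes thrombin activate protein C, had 564, 555 and 566 at 5 weeks and 778, 748 and 683 at 16 weeks, against 252, 282 and 197 in normal liver. It was called higher at all 5 times, with log2 changes between 1.08 and 1.55, and at 5 and 16 weeks under all 3 scalings. A second Thbd probe set was called at 12 and 16 weeks, with 1.05 and 1.62. Proc, the protein C gene itself, was called lower at 16 weeks alone. Of 10 endothelial markers, 8 were tested, and at 16 weeks Vwf was called higher, Kdr and Stab2 were called lower, and the median log2 change was 0.17. Their summed signal, carried by the brightest of them, was 7825 to 8234 at 16 weeks, against 9518 to 10255 in normal liver, and the part of these cells in the values of Procr and Thbd was not tested.

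**Figure D5:**
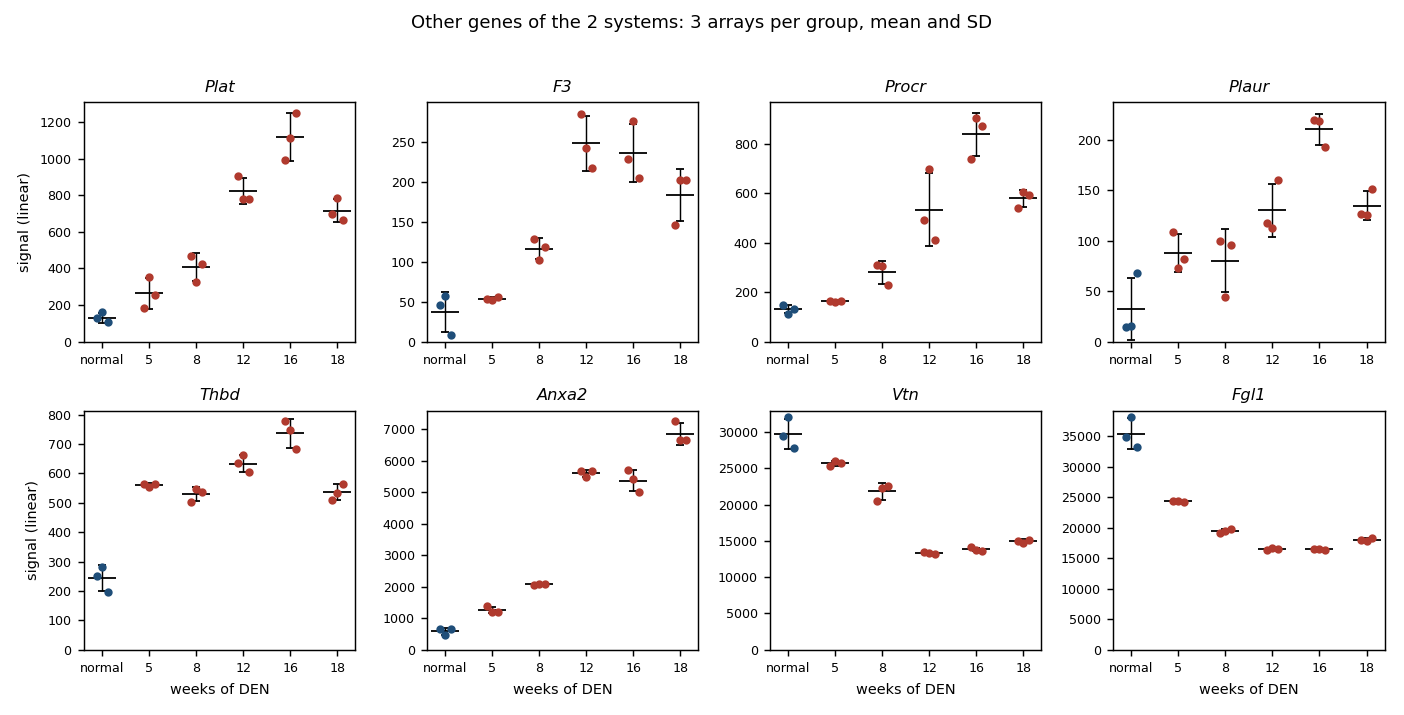
Signals (linear scale) of 8 further genes of coagulation and complement, by weeks of DEN with normal liver at the left, showing each of 3 arrays (red for DEN, blue for normal liver) with the mean and SD. Plat and Procr peak at 16 weeks and Anxa2 is highest at 18 weeks, whereas Vtn and Fgl1 lie below normal liver at every time.

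Those of the list that fell include plasma proteins of the hepatocyte. Vtn, vitronectin, which keeps the terminal complex of complement off membranes, had 13517, 13280 and 13219 at 12 weeks, against 29414, 32025 and 27868 in normal liver (log2 -1.15). Fgl1, a fibrinogen-like protein, had 16394, 16688 and 16495 at 12 weeks, against 34962, 38171 and 33247 in normal liver, a change of -1.10. Pros1, protein S, the cofactor of protein C and partner of the C4bpb chain, fell by 1.01 at 16 weeks and by 1.01 at 18 weeks. Vkorc1, the vitamin K reductase that the vitamin K-dependent factors require, fell by 1.02 at 12 weeks and by 1.10 at 16 weeks. Its signals at 12 weeks were 6794, 5139 and 6889, against 12729, 12361 and 12699 in normal liver. The change at 12 weeks, close to the 2-fold threshold, thus leaned on the second array. After quantile normalization none of these 4 was called. Fcna, ficolin A, a lectin of liver macrophages in mouse, had 985, 983 and 937 at 16 weeks, against 2454, 2646 and 2507 in normal liver, and was called at 16 weeks under all 3 scalings (log2 -1.37 as deposited). Of 12 macrophage markers, 11 were tested and 2, Clec4f and Cd5l, were called lower at 16 weeks. The median log2 change of the 11 at that time was 0.18, and the part of macrophages in the values of Fcna was not tested. Fcnb, ficolin B, a lectin of myeloid cells, moved both ways: it had 422, 424 and 406 at 5 weeks, 56.5, 15.7 and 17.2 at 8 weeks, and 451, 543 and 512 at 16 weeks, against 136, 182 and 160 in normal liver. It was called higher at 5 and 16 weeks and lower at 8 weeks. Of 10 neutrophil and mast cell markers 5 were tested, and at 8 weeks S100a8, of neutrophils, was called lower and Cma1 and Mcpt2, of mast cells, were called higher. At 16 weeks S100a8 had a log2 change of -0.05.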

How the data were processed

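The authors deposited intensity signals of 18 arrays, made with GCOS 2.0 per the submitters' processing notes from 5 ug of RNA per array; no source used here gives the scaling target. The deposited workbook holds the same signals with gene symbols, the authors' log2 ratios for every pairing of a DEN array with a normal array, and a ratio or fold column, per the file headers. Its 3 normal columns hold the values in another order (correlation at most 0.064), so signals came from the value table and only symbols and log2 ratios from the workbook.

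Signals were used as deposited, on log2(signal + 16). Probe sets whose mean was above the 40th percentile of non-control probe sets (signal 87.5) were kept, 18625 in all, and the brightest probe set stood for its gene, giving 10452 genes. One limma 3.58.1 fit (R 4.3.3) over all 6 groups gave each time against normal liver, each step between neighbouring times and the mean of the DEN groups. A gene was called at a Benjamini-Hochberg adjusted p under 0.05 over all genes and a change of at least 2-fold. Folds of dim genes depend on the 16 added, which mostly understates them, and on single arrays near 0. The fit was tested on simulated data.

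The members and lists were chosen with earlier results of these data known. Every member is named, those called at 2 times or more or in a step and the brightest and dimmest of each class in full; of the further genes, the 6 highest and 6 lowest mean changes among genes called at 1 time or more are named. Precision is limited by 3 arrays per group; the numbers of arrays do not pair them (correlations of deviations between same-numbered arrays of -0.076 to 0.188, median 0.042). Alternatives tried were other scalings, pseudocounts, filters, probe set rules, variance models, a replicate block, leaving out arrays, and the authors' log2 ratios.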

Additional observations from a re-analysis of the deposited data

Results flagged for a closer look

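Changes between neighbouring times were called for few of the genes described. C6 was lower at 12 weeks than at 8 weeks, with a log2 change of -1.06 (SE 0.0727, adjusted p = 1.96e-08), and all 3 arrays of 12 weeks lay below those of 8 weeks. Anxa2 was higher at 12 weeks than at 8 weeks, with 1.43 (SE 0.108, adjusted p = 5.56e-08), and Plat likewise with 1.003 (SE 0.195, adjusted p = 0.000573). The C6 call ended after quantile normalization, and the Plat call after quantile normalization and after median centring, with 0.94 and 0.73. Fcnb was lower at 8 weeks than at 5 weeks, with -3.35 (SE 0.227, adjusted p = 5.41e-08), higher at 12 weeks than at 8 weeks, with 2.35 (SE 0.227, adjusted p = 7.5e-07), and higher at 16 weeks than at 12 weeks, with 1.26 (SE 0.227, adjusted p = 0.000783). The Fcnb signals of 8 weeks lay under the filter level of 87.5, so the size of the first 2 of these changes depends on the value added before the logarithm. The arrays of 8 weeks were also those with the highest 3′ to 5′ ratios, 2.12 for Gapdh and 4.48 for beta-actin, against 1.12 and 2.36 in normal liver, and the part of this in the steps was not tested.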

How the results depend on the processing

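After quantile normalization the members called lower were 6, 5 and 6 at 12, 16 and 18 weeks, 0 between 8 and 12 weeks and 1 over the mean of the DEN groups, and after median centring 25 and 30 at 12 and 16 weeks, 7 between 8 and 12 weeks and 13 over the mean. Against all genes' medians of 0.15 and 0.16 at 12 and 16 weeks as deposited, median centring gave -0.23 and -0.31. Shares of all genes called lower after quantile normalization or median centring are not given here, so these member counts lack a background. The direction of a member at a time differed from that as deposited in 24 of 165 cases after quantile normalization and in 3, of C2 and Cfd, after median centring. Over the mean of the DEN groups quantile normalization turned C3 to 0.0298, F5 to 0.0743 and Cfi to 0.00138, the cause was not tested, and none of these was called. Without a fold threshold, which admits smaller changes, 29, 30, 33, 32 and 32 members passed at 5 to 18 weeks, 26, 25, 13 and 22 in the 4 steps in time order, and 33 over the mean. By this criterion 21.9% of all genes were lower at 5 weeks. The shares of all genes at the other times and steps are not given here. A pseudocount of 1 gave 2 calls between 8 and 12 weeks, averaging probe sets per gene 2 at 8 weeks, and leaving out the arrays of 8 weeks, an alternative chosen after seeing the data, 7 over the mean. Leaving out 1 array at a time gave 12 to 14, 14 to 16 and 10 to 11 calls at 12, 16 and 18 weeks, 0 at 5 weeks, 1 at 8 weeks, 0, 0 and 0 in the other steps and 4 to 5 over the mean. Between 8 and 12 weeks it gave 1 to 2 calls, the 2 without replicate 1 or 3 of 8 weeks or of 12 weeks. The replicate block changed 0 member calls (12, 14 and 10 at 12, 16 and 18 weeks). In the authors' deposited table of log2 ratios, also added after seeing the data, 12, 13 and 12 members averaged -1 or less at 12, 16 and 18 weeks. Of all genes, 4.46%, 5.67% and 4.57% did so. Of 959 values under alternatives other than leaving out an array, 890 kept direction and side of the threshold. Of the rest, 42 passed it newly, 24 no longer passed and 3 turned. Quantile normalization gave 23 of the 24 and all 3 that turned, and left 45 of its values unchanged. The pooled count therefore understates how far the results depend on that scaling. Dim genes and possible saturation of bright ones limit the sizes of change.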
